A study of Mus musculus with 12 samples.

Results

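The potassium channel family of the mouse spinal cord was followed through ageing and contusion injury. Its members were the genes whose symbol starts with Kcn and that had at least 1 probe paired with no other gene, without Kcnj10 and Kcnj16. This gave 82 of the 18194 genes named on the array, 79 of them protein coding and 3 long noncoding RNAs (Kcnq1ot1, Kcnmb4os1 and Kcnmb4os2), measured by 164 probes in all, and each gene was read from its probe of highest mean signal over the 12 arrays. The rule uses symbols and mean signals only and no difference between groups.

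The study compared Th9 spinal cord segments of female C57BL/6 mice (C57BL/6J in the methods of the study) in 4 groups of 3. Young mice were 2 to 3 months old and aged mice 15 to 18 months old, and at each age 1 group was intact and the other was killed 9 days after a contusion delivered by an impactor at the same level. All mice were perfused with heparinized saline before dissection, and the labels name no transgene or drug for any group. RNA was hybridized to a whole-transcriptome array whose deposited MAS 5.0 signals are linear and have a trimmed mean of 100 on every array. A signal depends on its probe, so signals are compared here between groups for 1 gene and never between genes.

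Potassium channels set the resting potential of cells and end the action potential. Voltage-gated channels (the Kv subfamilies), with their cytoplasmic and transmembrane partners, shape firing and release in neurons and cluster at nodes of Ranvier and axon initial segments. Calcium- and sodium-activated channels follow the activity of the cell, inward rectifiers and twin-pore leak channels hold the membrane at rest in neurons and glia, and a few channels are best known from microglia, macrophages and lymphocytes, where potassium efflux or a negative membrane potential accompanies activation.

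The segments carried the transcripts of cord tissue, with higher signals of microglia and macrophage markers in the injured ones. The 8 markers of these cells summed to 1604 to 1808 in young intact and 2812 to 3069 in aged intact cord. Their sums were 16018 to 20503 in young injured and 19830 to 23405 in aged injured cord. The summed signal of 12 neuron markers was 24062 to 25389 on the 6 intact arrays, 8766 to 13301 in young injured cord and 2089 to 12272 in aged injured cord. The aged injured range was the widest because replicate 1 gave 2089, against 12272 for replicate 2 and 8227 for replicate 3. On that array the 8 microglia and macrophage markers summed to 23405, against 19830 and 21712. Injury values without this array are given below for the medians and for Kcna2, Kcnab1, Kcnab3, Kcnc1, Kcnc2 and Kcnip4. The comparison of the injured groups is also given without it. The other folds for aged mice include this array. The sum of the 8 astrocyte markers was 16903 to 18607 in intact cord, 18631 to 21135 in young injured cord and 9528 to 16012 in aged injured cord. The 6 T cell markers, Cd3e among them, had group means below 50 throughout.

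A mean signal above 50 over the 12 arrays, the level used here to call a gene measured, was reached by 32 of the 82 genes. They were Kcna1, Kcna2, Kcna6, Kcnab1, Kcnab2, Kcnc1, Kcnc2, Kcnc4, Kcnd2, Kcnd3, Kcng4, Kcnh2, Kcnh3, Kcnip1, Kcnip4, Kcnma1, Kcnmb4, Kcnq3, Kcns3, Kcnt1 and Kcnt2 among voltage-gated and ion-activated channels and their subunits, Kcnn2 and Kcnn4 among calcium-activated channels of small and intermediate conductance, Kcnj3, Kcnj11 and Kcnj13 among inward rectifiers, Kcnk1, Kcnk2, Kcnk6 and Kcnk13 among twin-pore channels, the accessory subunit Kcne1l and the RNA Kcnq1ot1. The genes just inside this limit were Kcnt1 at 52.6 and Kcnh3 at 53.3, and those just outside were Kcnd1 at 47.3 and Kcne4 at 46.7. For the tests a gene needed a mean above 50 in at least 1 group, which 41 of the 82 genes had. The other 41 stayed below 50 in every group and are not described as absent. Of the 41 tested, 19 were above 50 in all 4 groups, 12 in both intact and no injured group, and 5 in an injured and no intact group. The number above 50 was 36 in young intact, 35 in aged intact, 29 in young injured and 23 in aged injured cord.

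Injury was accompanied by lower signals across most of the family at both ages. In young mice 31 of the 41 genes tested were lower, 5 higher (Kcnn4, Kcnk6, Kcne1l, Kcne4 and Kcnh3) and 5 not called (Kcnip3, Kcna6, Kcnj13, Kcnq1ot1 and Kcnd1). Of all 10511 genes tested, 34.1% were called lower and 33.9% higher in that comparison. In aged mice 33 were lower, 4 higher (Kcnn4, Kcnk6, Kcne1l and Kcnh3) and 4 not called (Kcnq1ot1, Kcne4, Kcnk13 and Kcnd1), against 39.9% lower and 35.6% higher among all genes. The same 30 genes were lower and the same 4 higher at both ages. The median log2 difference of the 41 genes was -1.37 in young and -1.79 in aged mice, while the median of all genes was -0.005 and -0.042. A gene could be tested through the group in which it was high, so these counts and medians describe the genes that passed the limit and not all 82. In a whole segment, fewer cells of a type and less RNA per cell cannot be told apart.

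**Figure D1:**
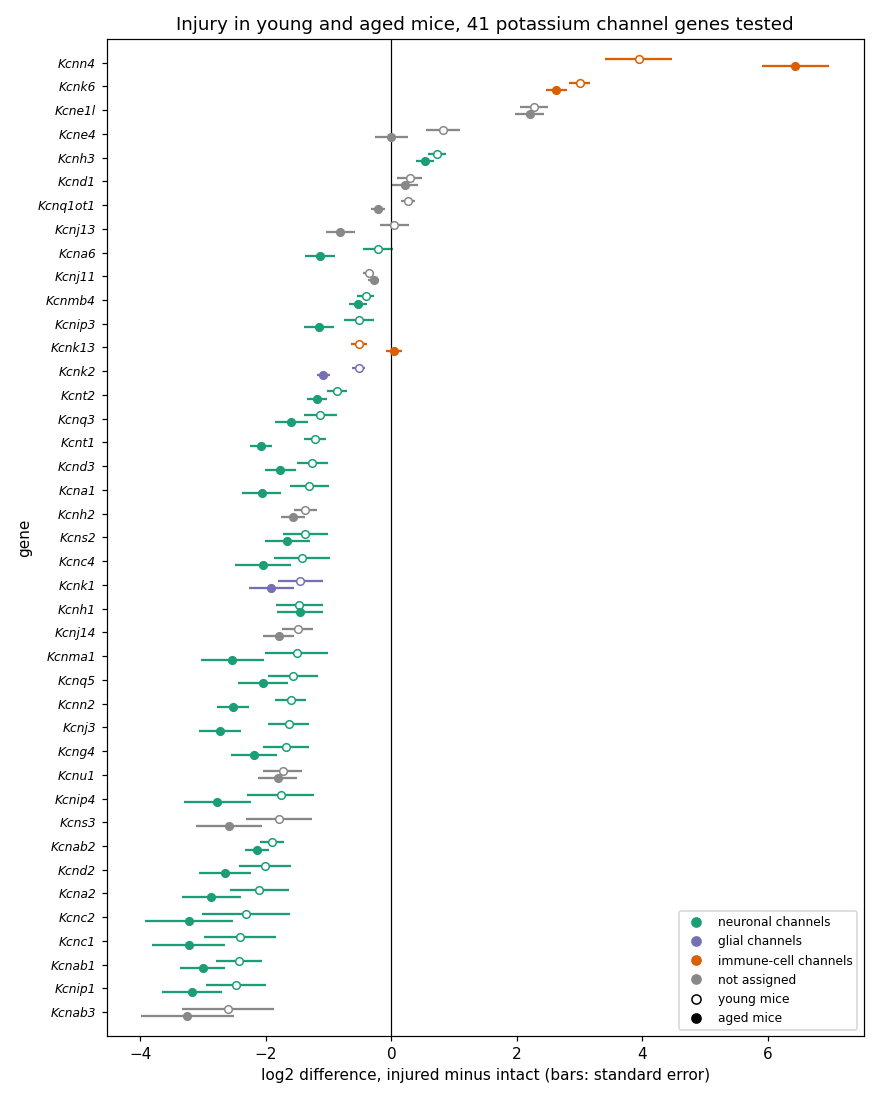
Log2 difference between injured and intact cord (horizontal axis) for the 41 Kcn genes tested, ordered by the value in young mice. Open points are young and filled points aged mice, bars are standard errors from the limma fit with 3 arrays per group, and colours mark neuronal, glial and immune-cell channels; Kcnn4 and Kcnk6 stand at the top with values of 2.63 or more at both ages, and 33 genes are below 0 in young mice.

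The promoters of genes that moved in opposite directions are shown for reference. RefSeq windows of 300 bases around the start site (build GRCm38.p6) were found for 62 of the 82 genes, 84 windows in all. The 100 bases upstream of the start are printed 5′ to 3′ on the strand of the gene for Kcna2 (plus strand, chr3:107101467-107101566) and Kcnc1 (plus strand, chr7:46396368-46396467), which were lower after injury, and for Kcne1l (minus strand, chrX:142306199-142306298) and Kcnn4 (plus strand, chr7:24370163-24370262), which were higher. Capitals mark a GC box, GGGCGG on either strand, where it lies in these 100 bases.
Kcna2: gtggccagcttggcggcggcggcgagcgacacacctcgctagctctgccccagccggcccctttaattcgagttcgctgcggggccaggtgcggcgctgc
Kcnc1: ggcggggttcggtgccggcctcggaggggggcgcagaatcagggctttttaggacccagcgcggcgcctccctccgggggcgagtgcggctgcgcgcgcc
Kcne1l: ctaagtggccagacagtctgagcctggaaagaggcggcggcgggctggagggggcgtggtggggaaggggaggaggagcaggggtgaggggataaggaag
Kcnn4: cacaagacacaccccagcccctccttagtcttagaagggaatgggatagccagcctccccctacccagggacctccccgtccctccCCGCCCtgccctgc

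All 4 windows held a GC box somewhere in their 300 bases, as did 48.8% of the 84 Kcn windows and 35.7% of all 32851 windows. They differed in CpG content, with 31 CpG in the Kcna2 window, 41 in Kcnc1, 12 in Kcne1l and 6 in Kcnn4, against a median of 7.0 over all windows. The median was 9.5 over the 36 windows of Kcn genes lower at both ages. It was 9.0 over the 2 windows of those higher at both ages. The Kcna2 and Kcnc1 windows are therefore not typical of the lower set. A TATA box (TATAAA) was found in 4.76% of Kcn windows and 13.6% of all. An AP-1 motif (TGANTCA) was found in 4.76% of Kcn windows and 7.81% of all. Neither the left part of the RE1 element (TTCAGCACC) nor the PU.1 core (GAGGAAGT) occurred in a Kcn window on either strand, and they were in 0.371% and 3.2% of all windows.

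Among the Kv1 channels, which open at low voltage and lie beside the nodes of myelinated axons, Kcna1 and Kcna2 fell at both ages, as did the beta subunits. Kcna3, Kcna4, Kcna5 and Kcna7 stayed below 50 in every group. Kcna1 had a signal of 1591 ± 52.8 (SD, n = 3) in young intact and 643.9 ± 55.36 in young injured cord, and 1535 ± 92.27 and 407.6 ± 210.2 in the corresponding aged groups. The injury difference was 2.47-fold in young mice (adjusted p = 0.00326) and 3.77-fold in aged mice (adjusted p = 1.2e-04). Kcna2, its partner in axons, gave 846.9, 779.0 and 859.6 on the young intact arrays, 829.9, 842.5 and 775.5 in aged intact cord, 162.2, 243.0 and 180.0 in young injured cord and 41, 230.3 and 147.9 in aged injured cord. Every injured array was below every intact array, and the lowest value of the 12 was on aged injured replicate 1. Its fall was 4.25-fold in young and 5.84-fold in aged mice, or 4.32-fold without that array. For Kcna6, a further Kv1 subunit, the log2 injury difference was -0.21 in young mice (95% interval -0.73 to 0.31, adjusted p = 0.443) and -1.14 in aged mice (adjusted p = 0.00112). A second Kcna6 probe, with means of 86.9 in young intact and 100.7 in aged intact cord, differed from it. That probe had log2 differences of -1.30 in young and -1.78 in aged mice, so the young value depends on the probe.

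The beta subunits attach to the cytoplasmic side of Kv1 channels. Kcnab1 gave 677.4, 663.5 and 680.3 in young intact, 843.4, 725.5 and 739.9 in aged intact, 118.5, 188.2 and 87.8 in young injured and 50.1, 155.4 and 111.5 in aged injured cord. The groups with and without injury did not overlap, and the difference was 5.12-fold in young (log2 -2.43, SE 0.36, adjusted p = 1.62e-04) and 7.28-fold in aged mice (log2 -3.01, SE 0.36, adjusted p = 2.47e-05). Without aged injured replicate 1 the aged difference of Kcnab1 was 5.77-fold. Kcnab2 fell 3.72-fold and 4.28-fold, with the smallest standard error of the 8 genes that fell most in young mice (0.19). Kcnab3 carried the most negative log2 value of the 41 genes tested, -2.60 in young and -3.25 in aged mice, but on low signals. It gave 63.1, 51.1 and 63.0 in young intact, 68.5, 47.7 and 64.9 in aged intact, 5.4, 16.8 and 10 in young injured and 1.6, 19.9 and 7.7 in aged injured cord, so that with the injured groups set to 50 it was at least 1.18-fold and 1.21-fold lower. Intact and injured arrays of Kcnab3 were fully separate. Without aged injured replicate 1 the aged log2 value of Kcnab3 was -2.27, and the most negative was then -2.54 for Kcnab1.

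Kv3 channels, whose fast closing lets neurons fire at high rates, were among the members that fell most. Kcnc1 gave 1064.0, 941.5 and 1024.5 in young intact, 986.2, 955.8 and 1055.6 in aged intact, 136.5, 243.5 and 204.3 in young injured and 32.2, 275.3 and 135.6 in aged injured cord. No injured array reached an intact one, while the aged injured arrays were spread more widely than any other group. The difference was 5.19-fold in young (adjusted p = 0.00351) and 6.77-fold in aged mice (adjusted p = 4.04e-04), or 4.86-fold in aged mice without aged injured replicate 1. Kcnc2 fell 4.73-fold and 6.14-fold, the latter 4.30-fold without that array. Kcnc4 was at least 1.78-fold and 2.02-fold lower, and its call in young mice was lost without young injured replicate 1 (adjusted p = 0.054).

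Kv4 channels carry the transient A-type current of dendrites, and the KChIP proteins encoded by Kcnip genes bind them and sense calcium. Kcnd2 fell 3.97-fold in young and 5.33-fold in aged mice, and Kcnd3 2.36-fold and 3.28-fold. The Kcnd3 call in young mice was lost with all probes averaged (adjusted p = 0.217). Kcnip1 gave 281.7, 260.9 and 281.5 in young intact, 278.2, 283.0 and 246.9 in aged intact, 35.5, 78.5 and 42.7 in young injured and 11.4, 51.4 and 44.5 in aged injured cord. Its injured arrays all lay well below the intact ones. The difference was 5.26-fold in young (log2 -2.48, SE 0.48, adjusted p = 9.14e-04) and at least 5.39-fold in aged mice (adjusted p = 1.21e-04). Kcnip4 fell 3.08-fold and 5.44-fold, although in young mice the call was lost without young injured replicate 1 (adjusted p = 0.0539). Its aged fall was 4.02-fold without aged injured replicate 1. Kcnip3, also known as the transcriptional repressor DREAM, had a log2 difference of -0.52 in young mice (adjusted p = 0.0822) and was at least 1.11-fold lower in aged mice (adjusted p = 0.00131), a call lost with all probes averaged (adjusted p = 0.135).

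Among the remaining voltage-gated members, the M-current subunit Kcnq3 fell 2.19-fold in young and 2.82-fold in aged mice, and Kcnq5 was at least 1.14-fold and 1.10-fold lower. The silent subunits Kcng4, Kcns2 and Kcns3, which only modify other Kv channels, were called lower at both ages, as were the ether-a-go-go channels Kcnh1 and Kcnh2. Kcnh2, known as ERG, fell 2.58-fold and 2.88-fold. Kcnh3, listed with the neuronal channels, was the exception and was higher, at 43.2, 40 and 36.8 in young intact, 41.2, 42.8 and 46.3 in aged intact, 72.2, 53.4 and 74.6 in young injured and 59.4, 61.5 and 68.7 in aged injured cord. Its injured arrays all exceeded the intact ones by at least 1.33-fold in young (adjusted p = 0.00109) and 1.26-fold in aged mice (adjusted p = 0.00516) on group means. These signals are close to the limit of 50, and both calls were lost when the 4 probes of Kcnh3 were averaged.

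Of the 7 tested channels and subunits opened by intracellular ions, 6 were lower at both ages and 1, Kcnn4, was higher and is described with the immune-cell channels. Kcnma1, the large-conductance calcium-activated BK channel, fell 2.81-fold in young and at least 2.89-fold in aged mice. In young mice this call was lost with any of 4 arrays left out, young intact replicates 1 and 3 and young injured replicates 1 and 3, and with all probes averaged, with adjusted p between 0.0515 and 0.151. Its neuronal beta subunit Kcnmb4 changed less, by 1.32-fold and 1.44-fold, and the young call was lost without the same 4 arrays (adjusted p 0.0595 to 0.0768). The sodium-activated channels Kcnt1 and Kcnt2, known as Slack and Slick, were lower at both ages, Kcnt2 by 1.83-fold and 2.24-fold and Kcnt1 by at least 1.60-fold and 1.54-fold. Kcnn2, a small-conductance channel of the afterhyperpolarization, was at least 2.93-fold and 2.87-fold lower. Kcnu1, known from sperm, was called lower at both ages from intact means just above 50.

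The inward rectifiers gave values of unequal size. Kcnj3, a subunit of the channels that G proteins open in neurons, fell 3.02-fold in young and at least 4.96-fold in aged mice. Kcnj14 was at least 1.13-fold and 1.11-fold lower. Kcnj11, the pore of the ATP-sensitive channel, changed by 1.28-fold in young (adjusted p = 0.0047) and 1.22-fold in aged mice (adjusted p = 0.014), and both calls were lost with all probes averaged and the aged one also without aged intact replicate 3. Kcnj13, best known from epithelia such as the choroid plexus, had a log2 difference of 0.05 in young mice (95% interval -0.45 to 0.54) and fell 1.79-fold in aged mice (adjusted p = 0.00664).

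**Figure D2:**
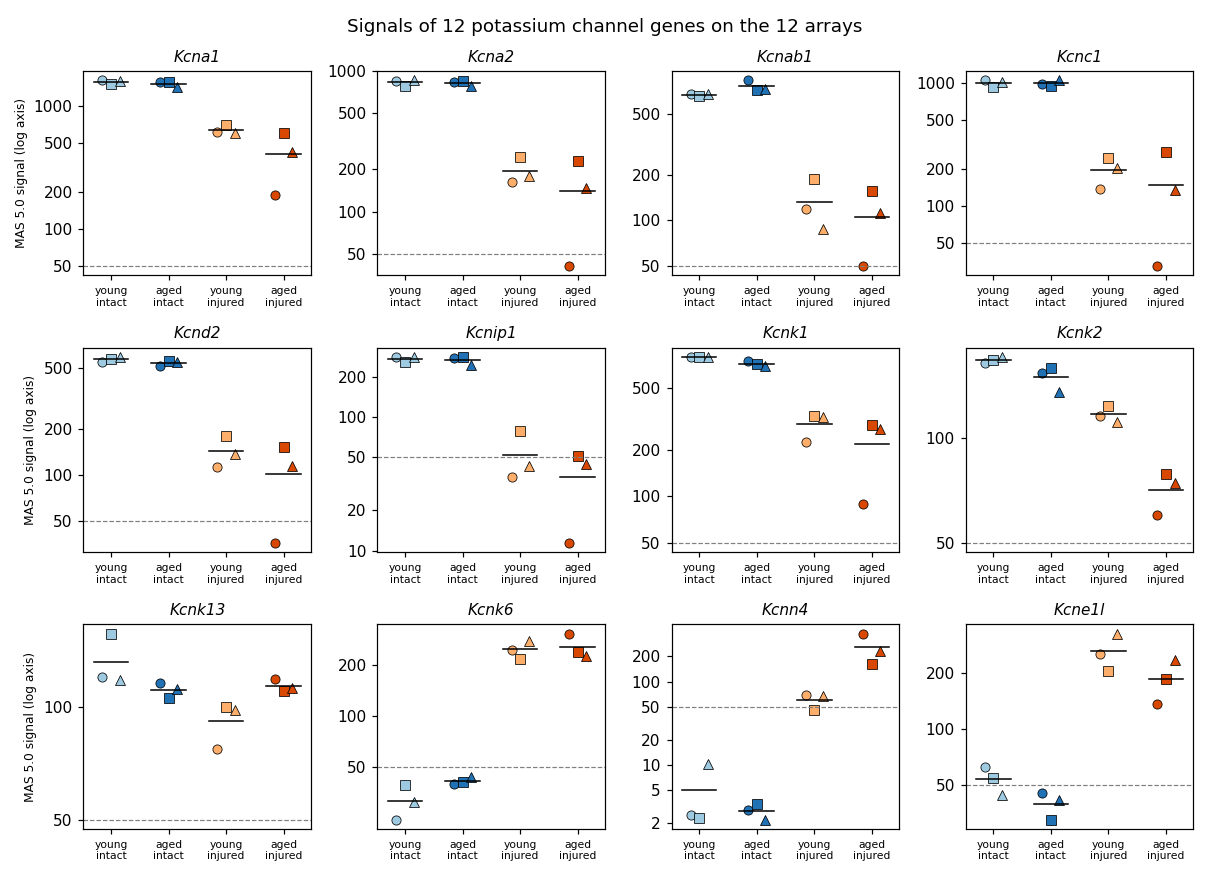
MAS 5.0 signal (vertical log axis, own scale for each gene) of 12 Kcn genes on the 12 arrays, by group. Circles, squares and triangles are replicates 1, 2 and 3, horizontal lines are group means and the dashed line is the signal of 50; Kcnn4 in aged injured cord lies between 160.2 and 374.5, above all other arrays, while for Kcna2 and Kcnc1 the lowest array of the 12 is aged injured replicate 1.

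Read by cell type, 42 neuronal channel genes had been listed from general knowledge, of which 37 were among the members and 25 were tested. In young mice 22 were lower, 1 (Kcnh3) higher and 2 (Kcna6 and Kcnip3) not called, with a median log2 difference of -1.51. In aged mice 24 were lower and 1 higher, with a median of -2.08. The 12 neuron markers, which include no channel of the family, had medians of -1.26 in young and -2.14 in aged mice, with 7 and 12 of them called lower. Without aged injured replicate 1 the aged medians were -1.66 for the neuronal channels and -1.36 for the neuron markers. Summed over the 37 genes, the neuronal channel signal was 7877 to 8442 on the intact arrays, 2284 to 3218 in young injured and 954 to 2811 in aged injured cord, and the array with the lowest marker sum also had the lowest channel sum. How much of the fall in channel signal goes with fewer neurons was not tested.

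**Figure D3:**
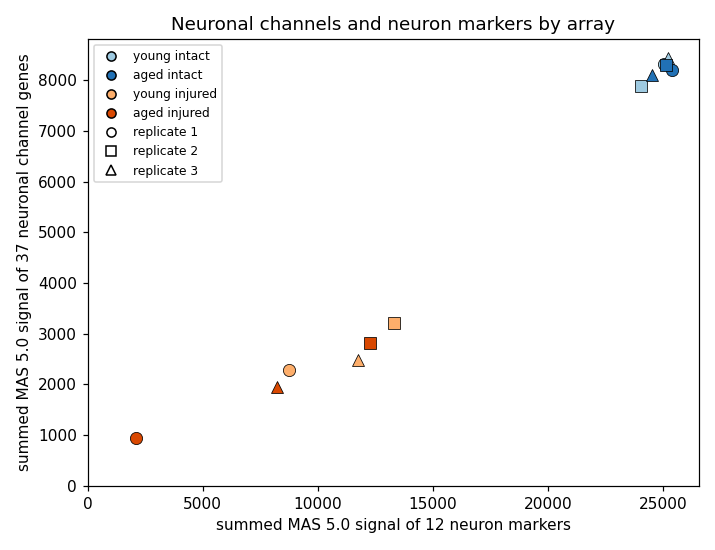
Summed MAS 5.0 signal of 37 neuronal channel genes (vertical axis) against that of 12 neuron markers (horizontal axis) on each of the 12 arrays, with colours for the groups and shapes for replicates 1 to 3. The 6 intact arrays lie together at channel sums of 7877 to 8442, and aged injured replicate 1 is the lowest array on both axes at 954 and 2089.

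Transcripts of proteins that assemble with potassium channels moved the same way where they could be tested. Of 18 listed partners 17 were paired with a probe and 12 tested, and all 12 were lower at both ages, with medians of -1.40 in young and -1.85 in aged mice. Dpp10 and Dpp6, transmembrane partners of Kv4, had log2 differences of -2.33 and -1.56 in young mice. Cntnap2, which holds Kv1 channels beside the nodes, went from a mean signal of 346.2 to 77.1 in young (adjusted p = 0.022) and from 350.2 to 46.67 in aged mice (adjusted p = 0.0011). The scaffold Ank3 of the axon initial segment showed smaller values, -0.85 and -1.50.

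Of the 3 genes listed as glial channels, Kcnk1 and Kcnk2 were tested and Kcnn3 stayed below 50 in every group. Kcnk1 (TWIK-1) and Kcnk2 (TREK-1) are leak channels of astrocytes that neurons also express. Kcnk1 gave 790.2, 790.4 and 796.3 in young intact, 747.2, 720.1 and 691.4 in aged intact, 223.9, 332.7 and 324.6 in young injured and 88.8, 288.5 and 273.3 in aged injured cord. Its injured arrays were all below the intact ones, with aged injured replicate 1 the lowest, and it fell 2.70-fold in young (adjusted p = 0.00423) and 3.32-fold in aged mice (adjusted p = 5.65e-04). Kcnk2 gave 164.8, 167.7 and 171.7 in young intact, 154.7, 159.8 and 135.9 in aged intact, 116.2, 124.2 and 111.2 in young injured and 60.2, 78.9 and 74.2 in aged injured cord. Each Kcnk2 array of the aged injured group was below each young injured array, which in turn was below each intact array. The fall was 1.43-fold in young (adjusted p = 0.00141) and 2.11-fold in aged mice (adjusted p = 6.58e-06). The 8 astrocyte markers had median log2 differences of -0.02 in young mice, with 1 lower and 2 higher (Gfap and Aqp4), and -0.54 in aged mice, with 5 lower.

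Of the 6 channels listed for immune cells 3 were tested, and Kcnn4 and Kcnk6 were called higher at both ages. Both passed the limit of 50 only through injured groups, so their rises are not independent of that limit. Kcnn4 encodes the calcium-activated channel of intermediate conductance found in activated T cells and microglia. It gave 2.5, 2.3 and 10.2 in young intact, 2.9, 3.4 and 2.2 in aged intact, 68.2, 46.1 and 67.5 in young injured and 374.5, 160.2 and 235.2 in aged injured cord. The intact arrays were all far below 50, the young injured ones lay around it and the aged injured ones were all higher. With the intact mean set to 50, the gene was at least 1.21-fold higher after injury in young (adjusted p = 9.17e-05) and at least 5.13-fold higher in aged mice (adjusted p = 2e-06). Its second probe moved in the same direction at both ages, from 1.67 to 23.3 and from 3.1 to 77.4.

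Kcnk6 encodes TWIK-2, a potassium efflux channel of macrophages. It gave 24.4, 39.2 and 31.2 in young intact, 39.7, 41.1 and 43.7 in aged intact, 248.7, 219.9 and 278.2 in young injured and 308.4, 238.8 and 229.0 in aged injured cord. Injured and intact arrays were far apart and the ages overlapped after injury. The rise was at least 4.98-fold in young (log2 3.00, SE 0.17, adjusted p = 1.65e-07) and at least 5.18-fold in aged mice (log2 2.63, SE 0.17, adjusted p = 3.35e-07).

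Kcnk13 encodes THIK-1, the leak channel of resting microglia, and was called higher at neither age. It gave 120.5, 157.2 and 118.4 in young intact, 116.2, 106.0 and 112.0 in aged intact, 77.4, 100.1 and 98.2 in young injured and 119.2, 110.4 and 112.8 in aged injured cord. In young mice the injured arrays were below the intact ones, a 1.44-fold fall (adjusted p = 0.00419). The call was lost when its pair of probes was averaged (adjusted p = 0.301), but the second probe had group means of only 1.73 to 2.63. In aged mice the groups overlapped on the probe used (log2 0.04, 95% interval -0.25 to 0.32). Over the same comparisons all 8 microglia and macrophage markers rose, with median log2 differences of 3.88 in young and 3.38 in aged mice. Tyrobp, a microglial adaptor, went from 273.8 to 4591 and from 554.8 to 5164. The other genes listed for immune cells, Kcna3, Kcne3 and Kcnj2, stayed below 50 in every group. Kcna3 encodes the Kv1.3 channel of T cells and had group means of 7.33, 8.3, 10.4 and 8.4 for young intact, aged intact and then the young and aged injured groups.

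Among the small accessory subunits encoded by Kcne genes, Kcne1l (also called Kcne5) rose at both ages. It gave 62.5, 54.3 and 44.3 in young intact, 45.2, 32.5 and 41.4 in aged intact, 252.8, 205.1 and 324.4 in young injured and 136.4, 184.3 and 235.7 in aged injured cord. The injured arrays exceeded every intact array, by 4.86-fold on group means in young (adjusted p = 1.04e-05) and at least 3.71-fold in aged mice (adjusted p = 9.06e-06). Kcne4, an inhibitory subunit of Kv1 channels, gave 31.5, 39.9 and 34.0 in young intact and 74.8, 50.1 and 62.8 in young injured cord, but 37.7, 47.6 and 44.6 in aged intact and 69.2, 35.0 and 32.9 in aged injured cord. The young groups were separate and the aged groups overlapped. It was at least 1.25-fold higher in young mice (adjusted p = 0.0179), a call lost without young intact replicate 1 or young injured replicate 1, and had a log2 difference of -0.002 in aged mice (95% interval -0.59 to 0.58). The imprinted RNA Kcnq1ot1 was not called at either age, with values of 0.26 and -0.21.

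The vascular channels listed, Kcnj8 of pericytes and smooth muscle, Kcna5 and Kcnmb1, stayed below 50 in every group. Kcnj8 had group means of 28.2 in young intact, 21.4 in aged intact, 36.3 in young injured and 32.8 in aged injured cord. Kcna5 was at 36.1, 30.7, 19.7 and 11.7 in the same order, and Kcnmb1 at or below 7.83. No fold is given for signals of this size.

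Age alone left the family without a called difference in intact cord. None of the 41 genes was called in either direction by limma, and 1 (Kcnk6) had an unadjusted p under 0.05 (0.0326, adjusted p = 0.417). Among all genes, 0.266% were called lower and 0.542% higher in aged intact cord by adjusted p, and no share was counted for unadjusted p. The 41 log2 differences ran from -0.48 to 0.42 with a median of -0.02. For Kcna1 the difference was -0.05 with a 95% interval of -0.73 to 0.63, and for Kcnab2 it was 0.02 with an interval of -0.41 to 0.45. These are unadjusted intervals of single genes and not limits of detection. Their width comes from the spread over all 4 groups, the widely spread aged injured arrays included. A call needed an adjusted p under 0.05 over all genes, so larger differences could also be missed with 3 arrays per group. Over the same comparison 6 of the 8 microglia and macrophage markers were called higher in aged cord.

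Between aged and young injured cord 6 of the 41 genes were called lower (Kcnk2, Kcnt1, Kcnj13, Kcnn2, Kcna6 and Kcnq1ot1) and 1 higher (Kcnn4), against 4.58% lower and 4.41% higher among all genes. Of the 41 differences 37 were negative, with a median of -0.52 against -0.04 for all genes, and all 25 neuronal channels were on the negative side with a median of -0.70, beside -0.90 for the neuron markers, of which 0 were called and 1 had an unadjusted p under 0.05. These medians rested on 1 array, and genes read from the same mice are not replicates of one another. The share of negative values among all genes was not counted. Of the 33 genes lower after injury in aged mice, 28 had their lowest value of all 12 arrays on aged injured replicate 1, the array with the low neuron marker sum. These 33 were picked as low in aged injured cord, and the same count over all genes was not made. Without aged injured replicate 1 the median of the 41 genes was -0.04, that of the neuronal channels -0.06 and that of the neuron markers -0.13, and 27 of 41 were negative. The count of lower calls was then 5 (Kcna6, Kcne4, Kcnj13, Kcnk2 and Kcnt1) and that of higher calls 0. The injury comparison in aged mice kept the same 33 lower and 4 higher genes without that array, with a median of -1.36 in place of -1.79.

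**Figure D4:**
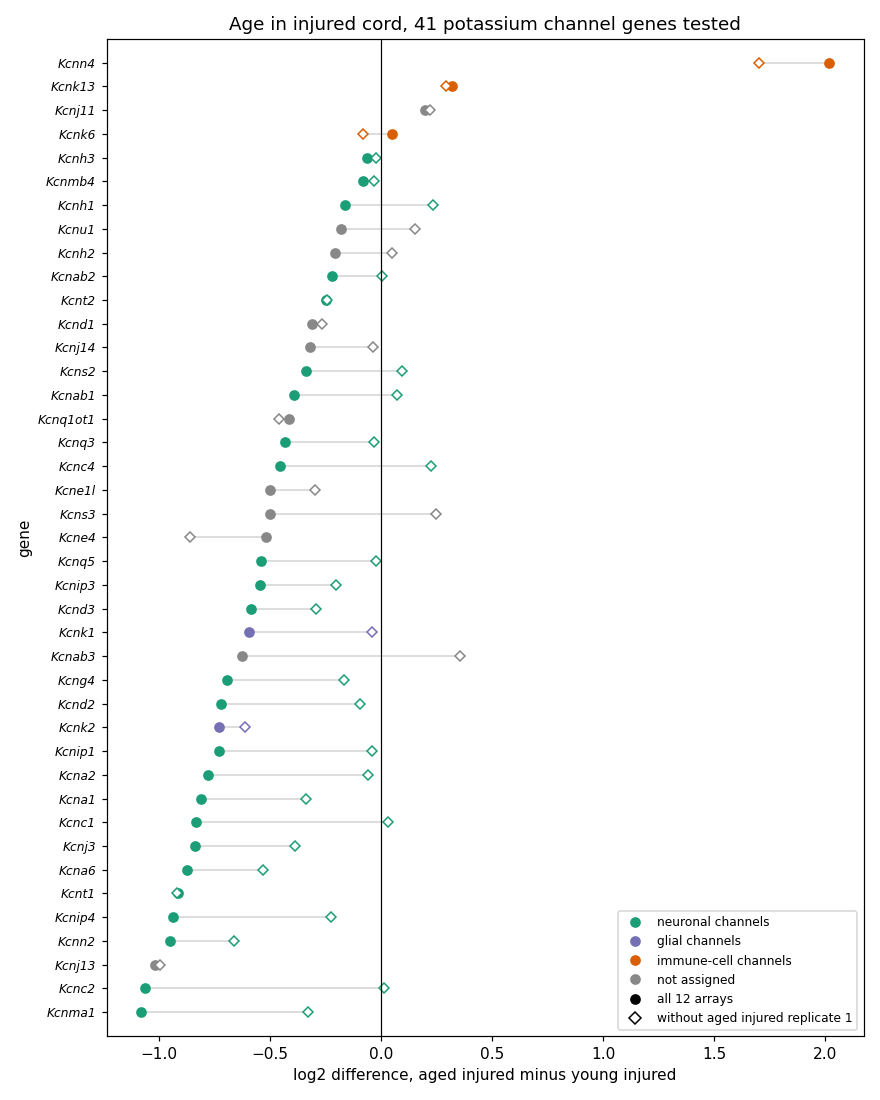
Log2 difference between aged and young injured cord (horizontal axis) for the 41 Kcn genes tested, from all 12 arrays (filled circles) and without aged injured replicate 1 (open diamonds), with colours for the channel lists. Most neuronal channels move toward 0 without that array, while Kcnk2 stays at -0.61 and Kcnn4 at 1.70.

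The genes called between the injured groups differed in how firmly they stood. Kcnk2 was 1.65-fold lower in aged injured cord (log2 -0.73, SE 0.11, adjusted p = 0.00719), and the call held with each of the 12 arrays left out in turn; it was lost in the fit of the 6 injured arrays alone (adjusted p = 0.126). Beside it, 4 of the 8 astrocyte markers were lower in aged than in young injured cord, and Gjb6, a connexin of astrocytes, went from 800.1 to 346.8. Whether Kcnk2 follows these cells was not tested. Kcnt1 gave 25.9, 39.1 and 40.1 in young injured and 18.3, 19.1 and 17.3 in aged injured cord, with no overlap but with both means below 50, so no fold is given (adjusted p = 0.016). That call was lost without young injured replicate 2 and in the fit of the injured arrays alone (adjusted p 0.0527 and 0.185). Kcnj13 gave 125.2, 97.8 and 98.2 against 50.9, 60.7 and 46.9, a 2.03-fold difference without overlap (adjusted p = 0.024) that was lost without any of the young injured arrays or without aged injured replicate 3 (adjusted p 0.0522 to 0.0958).

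Kcnn4 was 4.24-fold above its young level in injured cord of aged mice (log2 2.02, SE 0.54, adjusted p = 0.0416), and its 3 aged arrays exceeded the 3 young ones. Its second probe had means of 23.3 in young and 77.4 in aged injured cord. The call was lost in 12 of 20 alternatives, 9 of which left out 1 array, with adjusted p between 0.0512 and 0.129, while the log2 value stayed between 1.70 and 2.32. Macrophage marker sums were 16018 to 20503 in young and 19830 to 23405 in aged injured cord, overlapping between the ages, and 2 of the 8 markers were called higher in aged injured cord. Cd68 went from 2119 to 3578 (adjusted p = 0.0212) and Itgam from 182.7 to 328 (adjusted p = 0.0312), and their part in the Kcnn4 difference was not tested. The T cell marker sums, 48 to 67 in young and 42 to 102 in aged injured cord, overlapped.

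The other calls stood close to the threshold. Kcna6 gave 72.6, 81.9 and 75.3 in young injured and 25.9, 52.7 and 52.9 in aged injured cord, without overlap (adjusted p = 0.0433). Its second probe had means of 35.4 in young and 29.7 in aged injured cord, a log2 difference of -0.27. Kcnn2 gave 40.3, 60.4 and 45.9 against 16.8, 38.3 and 24.1 (adjusted p = 0.0399), and Kcnq1ot1 gave 86.7, 72.6 and 67.8 against 60.0, 54.6 and 54.9 (adjusted p = 0.0433). The calls of Kcna6, Kcnn2 and Kcnq1ot1 were lost in 13 of 19, 14 of 20 and 16 of 19 alternatives. With single arrays left out, the count of lower genes ran from 1 without young injured replicate 2 to 18 without aged injured replicate 2; it was 2 without young injured replicate 1 or 3 and 3 without aged injured replicate 3 or without any 1 of the intact arrays.

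No gene of the family had a called difference between the effect of injury in aged and in young mice. In this interaction test 0 of 41 genes passed in limma, against 0.304% lower and 0.133% higher calls among all genes. An unadjusted p under 0.05 was found for 9 of the 41, and the share of all genes at this looser limit was not counted. Among the 9 was Kcnn4 (adjusted p = 0.159), whose intact signals are too low for its log2 value to measure a fold. Kcnk2 had -0.56 (adjusted p = 0.133) and Kcnk13 0.56 (adjusted p = 0.182). The injury value was more negative in aged than in young mice for 24 of the 25 neuronal channels, and for 18 of 25 without aged injured replicate 1. These genes were read from the same mice and are not replicates. The median interaction value of all genes was -0.06, and their share of negative values was not counted. Calls at 1 age and not at the other, as for Kcna6, Kcnj13, Kcnip3, Kcne4 and Kcnk13, are therefore not shown to differ between the ages.

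Other probes of the genes called after injury moved in the same direction as the ones used. Of the tested genes, 16 had 19 further probes with a mean above 50 in at least 1 group. All 17 of these that belonged to genes called after injury in young mice, and all 18 in aged mice, had the same sign as the probe that was used. Only the sign was compared there, and not for the age comparisons. All further probes of Kcnd3, Kcnh3, Kcnip3, Kcnj11 and Kcnk13 were below 50 in every group, so an average over their probes mixes in signals near the background. Between aged and young injured cord a further probe gave -0.27 for Kcna6 in place of -0.88, and -0.18 for Kcnq1ot1 in place of -0.42. For Kcnt1 it gave -0.86 beside -0.92, and for Kcnn4 1.78 beside 2.02.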

How the data were processed

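Total RNA of Th9 segments from 4 groups of 3 mice was hybridized to GeneChip Mouse Genome arrays, 1 array per sample. The authors made the deposited signal intensities with MAS 5.0 (version not given in the sources used here) with background correction and scaling of every array, so that the deposited values are linear intensities with a trimmed mean of 100. Of 45101 probes, 34958 were paired with 1 gene in the platform annotation, and these were used. Each gene was read from its probe of highest mean signal. Genes with a mean above 50 in at least 1 group were kept, 10511 in all, and log2 signals (no pseudocount) were fitted with limma 3.58.1 in R 4.3.3, with 1 mean per group and a trend of variance with signal. Injury was compared at each age, age in intact and in injured cord, and the interaction. P-values were adjusted over all genes tested by Benjamini-Hochberg, with a threshold of 0.05. They set each difference against 1 spread per gene, estimated over all 4 groups of 3 arrays, and this small number limits the precision. The mean distance between arrays of a group, over log2 signals of all genes tested, was largest in aged injured cord (58.61). It was 26.79 in young intact, 26.9 in aged intact and 31.38 in young injured cord. The aged injured arrays can thus widen intervals and raise p-values of comparisons they are not part of. Where a group mean was below 50 it was set to 50 and the fold is given as at least that value; a log2 value is then no measure of the fold. With both means below 50 no fold is given.

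The rule for members uses no difference between groups and the lists come from general knowledge, but both were chosen with earlier results of these data known, so they are not independent of them. Named were all members with a mean over the arrays above 50, the 8 called genes of largest change in each injury comparison and direction, all members of the glial, immune-cell and vascular lists, and all members called between ages. Values per array are given for the 4 of largest change in each direction in young mice and for the tested glial and immune-cell channels. Alternatives were a fit without the variance trend, no filter, a filter at 100, quantile normalization, log2 of the signal plus 16, the mean over all probes of a gene, a replicate block, only the arrays compared, and leaving out each array. The fit was tested on simulated data. Kcn genes with no probe of their own were not analysed here.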

Additional observations from a re-analysis of the deposited data

How the results depend on the processing

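Of 3979 repeats of single results, 3870 kept their direction and their side of the threshold, 83 lost a call, 25 gained one and 1 reversed. The reversal was Kcnh3 after injury in young mice, -0.015 with all probes averaged (adjusted p = 0.97). With no filter the medians were -1.04 for injury in young and -1.18 in aged mice, 7 genes were higher after injury in aged mice, and 3 lower and 0 higher with age in injured cord. The filter at 100 gave 3 genes higher in young mice, 21 lower in aged mice with a median of -2.04, and 3 lower and 0 higher with age in injured cord; it leaves fewer genes to test. With 16 added to the signals the medians were -1.05 and -1.33, and 1 gene was higher in the interaction; with all probes averaged the median in young mice was -1.12. The fit of the injured arrays alone gave 0 lower and 0 higher. Leaving out 1 array at a time gave medians of -1.36 to -2.04 for injury in aged mice, -0.042 to -0.765 for age in injured cord and -0.037 to -0.775 for the interaction, with 1 to 18 lower and 0 to 1 higher genes for age in injured cord and 0 to 2 lower in the interaction. The cause of these shifts was not tested.

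Replicate numbers are shared by the groups in the labels. Deviations of samples with the same number correlated at 0.595, 0.667 and 0.015 between young and aged injured cord and at -0.113 to 0.089 between other groups. The main fit did not pair samples by number. The values of 0.595 and 0.667 do not show the injured arrays to be independent, and their source was not tested. A replicate block gave 31 lower and 5 higher genes for injury in young mice, 33 and 4 in aged mice, 4 and 1 for age in injured cord and 0 in the interaction. Signals below 50 are near the background of the array, and 41 of the 82 genes could not be compared for that reason.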
